A study of Mus musculus with 15 samples.

Results

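Vcam1, Icam1, Icam2, Sele and Selp encode the molecules by which endothelium holds passing leukocytes. They were taken by gene name from the deposited expression table of mouse aortic valves, and all 5 were found among its 18073 genes. Their identifiers there are ENSMUSG00000027962 (Vcam1), ENSMUSG00000037405 (Icam1), ENSMUSG00000001029 (Icam2), ENSMUSG00000026582 (Sele) and ENSMUSG00000026580 (Selp). The names alone chose them, with no filter on their level.

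The valves came from 15 C57BL/6 mice aged 2 months, 3 leaflets per mouse, in a design that crossed the Notch1 and Terc genotypes. The group labelled N1WT_TercWT (4 mice) was wild type for both genes and had long telomeres. The group N1het_TercWT (4 mice) was heterozygous for Notch1, a receptor needed for normal valve development, and also had long telomeres. The groups N1WT_TercG2 (3 mice) and N1het_TercG2 (4 mice) carried the same Notch1 genotypes but lacked Terc, the RNA template of telomerase, and were of generation 2, with shortened telomeres. Telomere length itself is as the submitters describe it and is not measured in the table. The labels name no tissue-restricted deletion, so the changes are not assigned to endothelium. The question posed by the series is what telomere length does to the effects of Notch1 haploinsufficiency. For each gene the table holds a single FPKM per group (a fragment count corrected for the length of the transcript and the size of the library) and none per mouse. No value below therefore has an error, and no difference has a replicate check. Read depth is unknown.

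Leukocytes leave the blood in steps. The selectins E (Sele) and P (Selp) catch them by sugar ligands and let them roll; the immunoglobulin family members Icam1, Icam2 and Vcam1 then bind leukocyte integrins and arrest them. Sele, Vcam1 and Icam1 are classic targets of cytokines acting through NF-kappaB, Icam2 is made by resting endothelium, and P-selectin is stored ready-made in the Weibel-Palade bodies of endothelium and in the alpha granules of platelets. In the aortic valve, endothelial Vcam1, Icam1 and Sele are known for their place in early valve inflammation, and Vcam1 is also made by interstitial cells, smooth muscle and macrophages.

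RefSeq promoters (build GRCm38.p6) were matched by symbol for 3 of the 5 genes, Icam1, Sele and Selp, and not for Vcam1 and Icam2. The 250 bases before the start are shown because they hold the nearest control sequence of 3 members whose levels had 3 different patterns. The build is not that of the submitters' notes (mm9). The windows are chr9:21015690-21015939 for Icam1, chr1:164047984-164048233 for Sele and chr1:164115014-164115263 for Selp, all on the plus strand. Capitals mark matches, on either strand, to 2 NF-kappaB patterns (GGG and CC with any 5 bases between them, and AATTTCC) and, in Sele, to TGACATCA (a site of ATF factors) and TGACTCA (AP-1).
Icam1: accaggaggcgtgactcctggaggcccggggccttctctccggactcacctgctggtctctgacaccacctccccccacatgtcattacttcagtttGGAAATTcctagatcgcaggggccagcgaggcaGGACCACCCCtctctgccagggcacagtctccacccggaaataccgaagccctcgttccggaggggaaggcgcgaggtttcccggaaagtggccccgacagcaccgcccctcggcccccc
Sele: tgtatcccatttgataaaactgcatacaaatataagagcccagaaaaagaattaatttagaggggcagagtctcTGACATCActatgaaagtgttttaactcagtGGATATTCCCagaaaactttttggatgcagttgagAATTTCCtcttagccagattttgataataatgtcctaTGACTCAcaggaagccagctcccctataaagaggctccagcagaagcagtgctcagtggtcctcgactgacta
Selp: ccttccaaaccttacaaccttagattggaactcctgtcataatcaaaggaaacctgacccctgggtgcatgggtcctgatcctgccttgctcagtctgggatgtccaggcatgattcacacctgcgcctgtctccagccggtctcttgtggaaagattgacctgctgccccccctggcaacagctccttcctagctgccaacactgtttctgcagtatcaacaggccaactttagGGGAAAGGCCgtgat

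The loose pattern of GGG, any 5 bases and CC matched once in each of the 3 windows, but 45.4% of the 27025 promoters of the same length held it. Its stricter form, GGG, any 2 bases and TTTCC, held by 1.4%, matched in none of the 3. AATTTCC matched in Icam1, 153 to 147 bases before the start on the minus strand, and in Sele, 110 to 104 bases before it on the plus strand, and in 3.27% of all promoters. TGACATCA and TGACTCA matched in Sele only of these 3 windows, and in 3.02% and 4.43% of all promoters. The last 3 patterns were chosen after the sequences were seen. A match is only a run of letters, and none of the patterns overlapped another in these windows.

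Terc, listed under another name in the table, was at 1.42 FPKM in N1WT_TercWT, 4.52 FPKM in N1het_TercWT and listed at 0 in both TercG2 groups. Notch1 was at 39.1 and 25.1 FPKM in N1WT_TercWT and N1het_TercWT. In the TercG2 groups it was at 16.6 FPKM in the one labelled wild type and 23.3 FPKM in the one labelled heterozygous, an order that goes against the labels, so every direction drawn between those 2 groups rests on their labels alone. The nature of the Notch1 allele is not given in the labels. Genes of the mitochondrial genome took 9.52% to 13.9% of all FPKM in the TercWT groups and 30.5% to 33% in the TercG2 groups. The median difference of log2(FPKM + 1) over all genes was between -0.24 and -0.16 for the 3 comparisons of a TercG2 with a TercWT group that the table marks. It was 0.09 and 0.06 for the comparisons by Notch1 genotype.

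The endothelium was measured in every group. Of its 16 marker genes none was listed at 0, and Pecam1 and Cdh5, adhesion molecules of endothelial junctions, were at 96.1 to 146 and 50.9 to 121 FPKM. Interstitial cell markers were abundant, with decorin (Dcn) at 2255 to 4698 FPKM. In these bulk samples more endothelial cells and more RNA per endothelial cell cannot be told apart.

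Vcam1, the ligand of the integrin VLA-4, was the most abundant of the 5 in every group. It stood at 132 FPKM in N1WT_TercWT, 130 FPKM in N1het_TercWT, 129 FPKM in N1WT_TercG2 and 264 FPKM in N1het_TercG2. The first 3 groups were within 3 FPKM of each other, and the group with both changes was 2.01 to 2.05 times as high as each of them. Vcam1 made up 52.4% to 65.2% of the summed FPKM of the 5 genes.

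Sele, E-selectin, whose expression is largely restricted to activated endothelium, had the same order at a lower level. It stood at 10.3 FPKM in N1WT_TercWT, 10.1 FPKM in N1het_TercWT, 10.1 FPKM in N1WT_TercG2 and 26.9 FPKM in N1het_TercG2. Again 3 groups lay together and the group with both changes was higher, 2.62 to 2.66 times each of the others.

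Icam1, the inducible ligand of the leukocyte integrins LFA-1 and Mac-1, divided by Terc genotype instead. It stood at 15.6 FPKM in N1WT_TercWT and 15.6 FPKM in N1het_TercWT, against 36.5 FPKM in N1WT_TercG2 and 43.9 FPKM in N1het_TercG2. Both values with short telomeres were above both with long ones.

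Icam2, the constitutive LFA-1 ligand of endothelium, also found on platelets and lymphocytes, differed by Notch1 genotype in both settings. It stood at 32.5 FPKM in N1WT_TercWT and 54.1 FPKM in N1het_TercWT, and at 43.5 FPKM in N1WT_TercG2 and 70.9 FPKM in N1het_TercG2. The heterozygous group was 1.67 times as high as wild type with long telomeres and 1.63 times with short telomeres.

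Selp, P-selectin, was highest in a group where Vcam1 and Sele were not. It stood at 11.9 FPKM in N1WT_TercWT, 12.3 FPKM in N1het_TercWT, 27.3 FPKM in N1WT_TercG2 and 8.72 FPKM in N1het_TercG2. The group with both changes, the highest of the 4 for the other 4 genes, was the lowest for Selp.

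**Figure D1:**
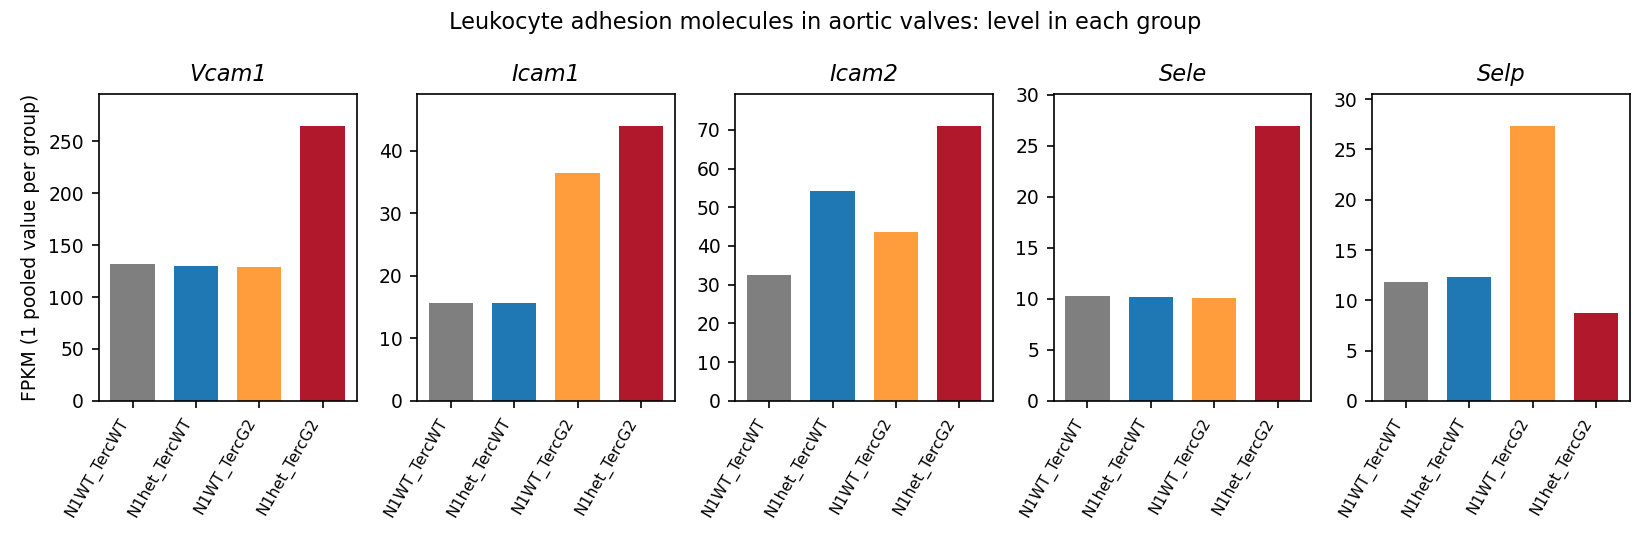
FPKM (vertical axis, linear from 0, a different range in each panel) of the 5 adhesion molecules in the 4 groups (horizontal axis); each bar is the authors' single pooled value, with no error. Vcam1 and Sele have 3 bars of nearly equal height and a higher one for N1het_TercG2, Icam1 is higher in both TercG2 groups, Icam2 is higher in both N1het groups, and Selp is highest in N1WT_TercG2 at 27.3 FPKM.

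Within a group the order of levels was Vcam1, Icam2, Icam1, Selp, Sele in the first 3 groups. In N1het_TercG2 the last 2 changed places, with Sele at 26.9 and Selp at 8.72 FPKM. Vcam1 lay above 97.5% to 98.8% of all genes of the table, and Sele above 62.4%, 59.7% and 65.7% in the first 3 groups and above 85.4% in N1het_TercG2. Whether neighbours in this order differ beyond the spread between mice cannot be told from pooled values.

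With long telomeres, loss of 1 copy of Notch1 went with nearly the same level of 4 of the 5 genes. The differences of log2(FPKM + 1) were -0.02 for Vcam1, -0.00 for Icam1, -0.02 for Sele and 0.05 for Selp, and 0.72 for Icam2. None of the 5 was at least 2-fold higher or lower, where 10.9% of all genes were higher and 7.53% lower by that measure. The authors' deposited table called 0 of the 5 in this comparison, and 0.415% of all genes. The mean of the 16 endothelial markers was lower by 0.42 in the same heterozygous valves, with 13 of 16 lower, so that relative to it all 5 members were higher, by 0.40 to 1.14.

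As deposited, 4 of the 5 differed more with short telomeres between the same genotypes than with long ones, and Icam2 about as much. Sele and Vcam1 were higher in the group labelled heterozygous, by 1.33 and 1.03 on the log2(FPKM + 1) scale, Icam2 by 0.69 and Icam1 by 0.26, and Selp was lower, at -1.54. By these values 2 of the 5 were at least 2-fold higher, against 12.5% of all genes, and 1 was at least 2-fold lower, against 10.8%. Relative to the median of all genes Vcam1 stood at 0.97, so that 1 was then at least 2-fold higher. The authors' deposited table called 0 of the 5 and 0.476% of all genes. The endothelial markers were higher by 0.27 on average, and relative to them Sele stood at 1.06, Vcam1 at 0.76, Icam2 at 0.42, Icam1 at -0.01 and Selp at -1.81.

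Between short and long telomeres in Notch1 wild type valves, Icam1 and Selp were the higher members. Icam1 differed by 1.17 as deposited and by 1.40 relative to the median of all genes, and Selp by 1.14 and 1.37. On the same 2 scales Vcam1 stood at -0.03 and 0.20, Sele at -0.02 and 0.21, and Icam2 at 0.41 and 0.64. As deposited 2 of the 5 were at least 2-fold higher, against 8.9% of all genes, and 0 lower, against 20.9%. Relative to the median the count of members was again 2, and the background was 12.7% higher and 15.2% lower. The authors' deposited table called 0 of the 5 and 0.686% of all genes. The endothelial markers were higher by 0.35 on average, 11 of 16 of them. Relative to that mean Icam1 stood at 0.82, Selp at 0.79, Icam2 at 0.06, Sele at -0.37 and Vcam1 at -0.38, so that 0 of the 5 were 2-fold higher.

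Between short and long telomeres in Notch1 heterozygous valves, Icam1, Sele and Vcam1 were each at least 2-fold higher. Icam1 differed by 1.43 as deposited and by 1.67 relative to the median of all genes, Sele by 1.32 and 1.56, and Vcam1 by 1.02 and 1.26. Icam2 stood at 0.38 and 0.62, and Selp at -0.45 and -0.21. The count of 3 of 5 higher stood against 4.71% of all genes, and 0 lower against 16.8%; relative to the median these shares were 7.8% and 11.8%. The authors' deposited table called 0 of the 5 and 0.432% of all genes. All 16 endothelial markers were higher in the same group, by 1.04 on average and 8 of them at least 2-fold. Relative to that mean, Icam1 stood at 0.39, Sele at 0.28, Vcam1 at -0.02, Icam2 at -0.66 and Selp at -1.49, so that none of the 5 was then 2-fold higher.

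Valves with both changes differed from those with neither in 4 of the 5 genes by 2-fold or close to it. Icam1 was higher by 1.43, Sele by 1.31, Icam2 by 1.10 and Vcam1 by 0.9998 on the log2(FPKM + 1) scale, while Selp stood at -0.40. Vcam1 fell just short of 2-fold on this scale although its FPKM ratio was 2.01, so 3 of the 5 were counted as higher, against 7.48% of all genes, and 0 as lower, against 17.2%. Relative to the median of all genes Vcam1 stood at 1.16, the count of members was 4, and these shares were 10.1% and 13.6%. With a pseudocount of 0.1 FPKM the count was also 4. The authors' deposited table called 0 of the 5 and 0.526% of all genes. The endothelial markers were higher by 0.62 on average, and relative to them Icam1 stood at 0.81, Sele at 0.69, Icam2 at 0.48, Vcam1 at 0.38 and Selp at -1.02, so that 0 were 2-fold higher and 1 was 2-fold lower.

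Short telomeres alone were also set against loss of 1 Notch1 copy alone. Icam1 and Selp were higher with short telomeres, by 1.17 and 1.09, Vcam1 and Sele both stood at -0.01 and Icam2 at -0.31. Here 2 of the 5 were at least 2-fold higher, against 7.55% of all genes, and 0 lower, against 22.9%. Relative to the median of all genes these shares were 12.7% and 14.6%. The endothelial markers were higher by 0.77 on average with short telomeres alone, 12 of 16 of them. Relative to that mean Icam1 stood at 0.40, Selp at 0.32, Vcam1 and Sele at -0.78 and Icam2 at -1.08, so that 0 members were 2-fold higher and 1 was 2-fold lower. The authors' deposited table has no calls for this comparison.

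The comparisons above share groups and are not independent of each other. In the authors' deposited table no called gene had a ratio below 4.25 to 4.79, depending on the comparison. Between 3210 and 3769 genes per comparison differed by 2-fold to 4-fold, and the authors' deposited table called 0 of them. The widest ratio between any 2 groups was 3.13 for Selp, 2.81 for Icam1, 2.66 for Sele, 2.18 for Icam2 and 2.05 for Vcam1, so every member lay below the range in which that table holds calls.

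**Figure D2:**
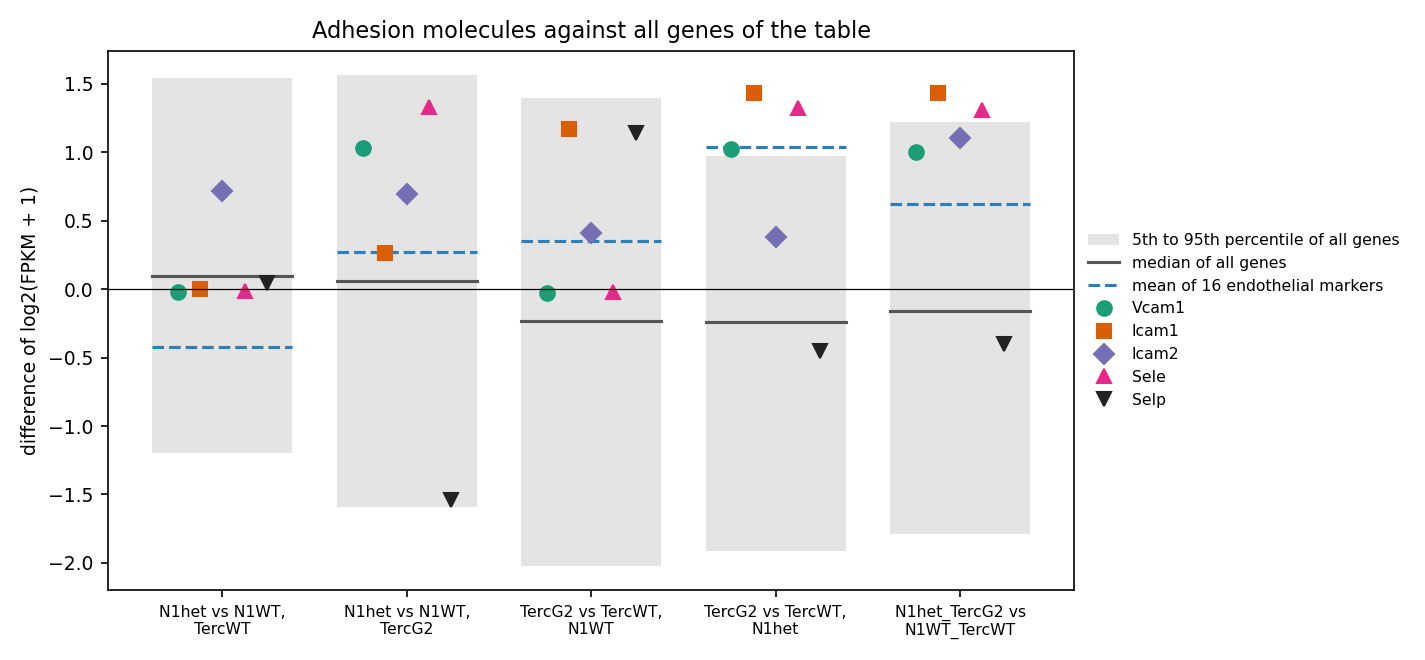
Difference of log2(FPKM + 1) (vertical axis) of each adhesion molecule (symbols) in the 5 comparisons (horizontal axis), beside the 5th to 95th percentile of all 18073 genes (grey box), their median (grey line) and the mean of 16 endothelial markers (dashed line). Icam1 and Sele lie above the box in both comparisons of N1het_TercG2 with a TercWT group, Vcam1 lies at the dashed line in the comparison within N1het, and Selp is near the lower edge of the box for N1het against N1WT in TercG2.

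The departure from additivity is the Notch1 difference with short telomeres minus that with long telomeres. It was 1.35 for Sele and 1.05 for Vcam1, 0.26 for Icam1, -0.03 for Icam2 and -1.59 for Selp. A departure of at least 1 was found for 16.5% of all genes and one of at most -1 for 17.4%, so values of this size were common in these pooled data. All 16 endothelial markers had a positive departure, 0.69 on average. Relative to it, Sele stood at 0.66, Vcam1 at 0.36, Icam1 at -0.43, Icam2 at -0.72 and Selp at -2.28. No test of this difference was possible with 1 value per group.

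Set against single endothelial genes, the members gave unequal pictures. Per FPKM of Pecam1, Vcam1 was at 1.37, 1.22, 1.19 and 1.81 in N1WT_TercWT, N1het_TercWT, N1WT_TercG2 and N1het_TercG2. Per FPKM of Cdh5 it was at 2.20, 2.55, 1.46 and 2.18 in the same order, with the group with both changes no longer the highest. Sele per Pecam1 was at 0.107, 0.0952, 0.0933 and 0.184, highest with both changes, and per Cdh5 at 0.172, 0.199, 0.114 and 0.222. Icam1 was higher in both TercG2 groups by either gene, at 0.337 and 0.301 per Pecam1 against 0.162 and 0.147. Per Cdh5 it was at 0.413 and 0.362 against 0.261 and 0.307. Icam1 was not set against Kdr and Cldn5. They were the 2 of 16 endothelial markers at least 2-fold higher in N1WT_TercG2 than in N1WT_TercWT, beside 8.9% of all genes. Kdr stood at 12.6, 9.87, 34.8 and 41.9 FPKM in the 4 groups, and Cldn5 at 2.6, 2.33, 15.5 and 17.8 FPKM. Each thus also divided by Terc genotype. Selp in N1het_TercG2 was the lowest by both, at 0.0598 per Pecam1 and 0.0719 per Cdh5.

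**Figure D3:**
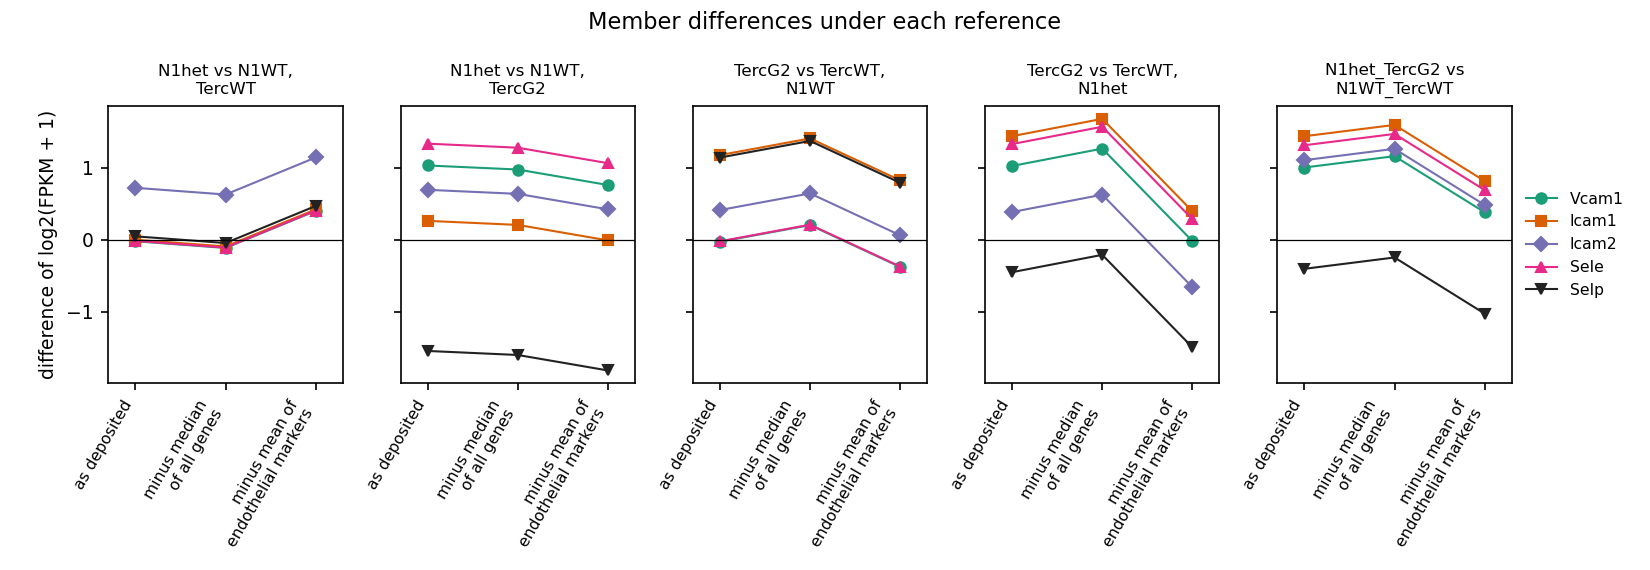
Difference of log2(FPKM + 1) (vertical axis) of the 5 adhesion molecules in each comparison (panels), as deposited, minus the median of all genes, and minus the mean of 16 endothelial markers (horizontal axis). Lines join 1 gene; the scaling moves all 5 by the same amount within a panel, and in the comparison of TercG2 with TercWT within N1het the values minus the endothelial mean run from -1.49 for Selp to 0.39 for Icam1.

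Sele and Selp both lie on chromosome 1, and Selp is followed there by F5, which encodes coagulation factor V. The pattern of F5 was neither that of Sele nor that of Selp. F5, which megakaryocytes also make, stood at 53.7, 0.928, 49.6 and 5.34 FPKM in N1WT_TercWT, N1het_TercWT, N1WT_TercG2 and N1het_TercG2. Icam1 is followed on chromosome 9 by Icam4, which is not analysed here, and Icam5, a neuronal gene listed at 0 in both N1WT groups and at 0.0189 and 0.8 FPKM in N1het_TercWT and N1het_TercG2. Genes on the opposite strand overlap Vcam1 and Icam1 (1 each) and Selp (2) in the GENCODE annotation, and the library kit is not stated in the labels to keep the strand.

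Of the leukocyte partners, 13 of 13 listed genes were measured. Vcam1 is bound by VLA-4, a pair of Itga4 and Itgb1. Itga4 stood at 3.94 FPKM in N1WT_TercWT, 14.2 FPKM in N1het_TercWT, 6.8 FPKM in N1WT_TercG2 and 4.69 FPKM in N1het_TercG2. Its highest level was in a group where Vcam1 was at 130 FPKM, and Itgb1, made by most cells, ranged from 127 to 180 FPKM.

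LFA-1, which binds Icam1 and Icam2, pairs Itgal with Itgb2. Itgal stood at 14.3, 29.3, 16.1 and 4.87 FPKM in N1WT_TercWT, N1het_TercWT, N1WT_TercG2 and N1het_TercG2, and Itgb2 at 22.7, 34.6, 33.3 and 20.6 FPKM. Itgam, the alpha chain of Mac-1 on myeloid cells, stood at 10.7, 13.4, 23.2 and 15.9 FPKM. Selplg, the main P-selectin ligand, stood at 13, 73.9, 17.7 and 17.6 FPKM. Itga4, Itgal, Itgb2 and Selplg were highest in N1het_TercWT, not in the group where Icam1, Icam2, Vcam1 and Sele were highest.

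In N1het_TercWT against N1WT_TercWT, 5 of the 13 partners were at least 2-fold higher and 0 lower, beside 10.9% and 7.53% of all genes. Their median difference was 0.59, beside 0.09 for all genes. In N1het_TercG2 against N1het_TercWT, 0 were at least 2-fold higher and 6 of 13 at least 2-fold lower, beside 4.71% and 16.8%, with a median of -0.87 beside -0.24. Markers of T cells and thymocytes moved with them. All 11 measured were at least 2-fold higher in the first comparison and at least 2-fold lower in the second, and their summed FPKM was 133, 1293, 189 and 22.6 in the 4 groups, with Ptcra listed at 0 in N1het_TercG2. Their part in the levels of the partners was not tested.

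Selectin ligands are built by enzymes and transporters, 8 of them measured. Between short and long telomeres in Notch1 wild type valves 0 were at least 2-fold higher or lower, beside 8.9% and 20.9% of all genes. In the heterozygous ones 1 was higher and 1 lower, beside 4.71% and 16.8% of all genes, and between both changes and neither 2 were higher and 1 lower, beside 7.48% and 17.2%. Gcnt1, which starts the branched sugar of P-selectin ligands, stood at 5.14, 7.81, 7.69 and 17.1 FPKM in N1WT_TercWT, N1het_TercWT, N1WT_TercG2 and N1het_TercG2. Slc35c1, the GDP-fucose transporter, stood at 4.75, 13.2, 9.72 and 5.22 FPKM. Fut7, the fucosyltransferase of leukocyte selectin ligands, did not exceed 1.19 FPKM.

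Among other adhesion and transmigration genes, several junction molecules were highest where Vcam1 and Sele were, Pecam1 and Cdh5 among them at 146 and 121 FPKM. Esam, an endothelial junction protein, stood at 16, 17.3, 24.2 and 55.7 FPKM in N1WT_TercWT, N1het_TercWT, N1WT_TercG2 and N1het_TercG2. F11r, the junction molecule JAM-A, stood at 29.1, 31.5, 25.2 and 51.4 FPKM, and Jam2 at 33.9, 38.5, 58.7 and 81.4 FPKM. Jam3 was highest in N1WT_TercG2, at 21.1 FPKM. In N1het_TercG2 against N1WT_TercG2, 11 of 13 measured genes were higher and 3 of them at least 2-fold, beside 12.5% of all genes, with a median of 0.45 beside 0.06. The authors' deposited table called 0 of the 13 there, beside 0.476% of all genes. In N1het_TercWT against N1WT_TercWT, 8 of 13 were higher, with a median of 0.11 beside 0.09. By at least 2-fold, 1 was higher and 1 lower, beside 10.9% and 7.53% of all genes.

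Under the membrane, adhesion molecules are held by ezrin, radixin and moesin and cluster with caveolin. Moesin (Msn) stood at 162, 181, 209 and 277 FPKM in N1WT_TercWT, N1het_TercWT, N1WT_TercG2 and N1het_TercG2. Cav1, the caveolin of endothelium and other cells, stood at 44.3 and 53.8 FPKM with long telomeres and 170.2 and 190.1 FPKM with short telomeres, a division by Terc genotype as for Icam1. Ezr was highest in N1het_TercWT, at 75.8 FPKM against 28.5 to 33.8 FPKM elsewhere. Of the 13 genes of this list, 2 were at least 2-fold higher and 2 lower in N1WT_TercG2 against N1WT_TercWT, near the 8.9% and 20.9% of all genes.

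The cytokines that induce Vcam1, Sele and Icam1 did not follow 1 pattern either. Tnf stood at 16.7, 21.6, 25.7 and 22.0 FPKM in N1WT_TercWT, N1het_TercWT, N1WT_TercG2 and N1het_TercG2. Il1b stood at 31.2, 69.8, 165 and 100.4 FPKM, highest in N1WT_TercG2, where Icam1 was at 36.5 FPKM but Vcam1 and Sele were at the level of N1WT_TercWT. Selp was highest in the same group, at 27.3 FPKM. Il6, made under the same signals, stood at 1.91, 0.51, 5.52 and 11.6 FPKM.

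Of their receptors, Tnfrsf1a, the main TNF receptor of endothelium, stood at 56.7, 42.3, 21 and 46.6 FPKM in the same order, and Il1r1 at 33.6, 23.2, 33.6 and 23.2 FPKM. Of 13 cytokines and receptors measured, 2 were at least 2-fold higher and 1 lower in N1WT_TercG2 against N1WT_TercWT, beside 8.9% and 20.9% of all genes. Against the same group, 3 were higher and 0 lower by at least 2-fold in N1het_TercG2, beside 7.48% and 17.2%. In N1het_TercG2 against N1WT_TercG2, 6 were higher and 7 lower by any amount, with a median of -0.22 beside 0.06 for all genes. By at least 2-fold, 1 was higher and 2 lower there, beside 12.5% and 10.8%. The authors' deposited table called 0 of the 13 in any of the 5 comparisons, beside 0.415% to 0.686% of all genes per comparison. Ifng, Il4 and Il13 were listed among the inducers and are not analysed here.

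Genes of the NF-kappaB pathway had several patterns. Tnfaip3, the A20 inhibitor, stood at 10.9, 60.5, 22.9 and 27.9 FPKM in N1WT_TercWT, N1het_TercWT, N1WT_TercG2 and N1het_TercG2, and Nfkbie at 6.37, 15.2, 5.42 and 7.74 FPKM. In N1het_TercWT, where both were highest, Vcam1, Sele and Icam1 were at the level of N1WT_TercWT. The summed T cell and thymocyte markers were also highest in N1het_TercWT, at 1293 FPKM against 133 FPKM in N1WT_TercWT. Their part in the levels of Tnfaip3 and Nfkbie was not tested. Between these 2 groups, 2 of the 14 listed genes were at least 2-fold higher and 0 lower, beside 10.9% and 7.53% of all genes. Nfkbia stood at 27.5, 45.3, 60.1 and 50.3 FPKM, highest in N1WT_TercG2 as Selp was. Rel, the c-Rel subunit of NF-kappaB, stood at 18.3, 22.6, 18.3 and 38.7 FPKM, highest in N1het_TercG2 as Vcam1 and Sele were. The kinase Map3k14 (NIK) was at 9.18 and 5.01 FPKM with long and 1.51 and 1.52 FPKM with short telomeres. Of the 14 genes, 7 were higher and 7 lower in N1het_TercG2 against N1WT_TercG2, with a median of -0.04 beside 0.06 for all genes. Rel was the 1 gene of the list at least 2-fold higher there, beside 12.5% of all genes.

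Among listed genes of quiescent, flow-adapted endothelium, Thbd, Hmox1, Procr and Nos3 were highest in the group where 4 of the adhesion molecules were. Klf2, Klf4, Tfpi, Sod1 and Foxo1 were highest in N1WT_TercG2. Thbd, thrombomodulin, stood at 50.6, 96.5, 122 and 215 FPKM in N1WT_TercWT, N1het_TercWT, N1WT_TercG2 and N1het_TercG2, and Hmox1, haem oxygenase, at 10.3, 26.4, 13.9 and 140.1 FPKM. The authors' deposited table called both higher with both changes than with neither, 2 of the 9 genes of this list, beside 0.526% of all genes. Klf4 stood at 52.3 and 54.6 FPKM with long and 130.4 and 125 FPKM with short telomeres. Klf2 stood at 39, 36.9, 67.4 and 50.2 FPKM, and Procr, the endothelial protein C receptor, at 15.1, 14.3, 8.5 and 34.6 FPKM. In N1het_TercG2 against N1het_TercWT all 9 were higher and 4 of them at least 2-fold, beside 4.71% of all genes. Their median there was 0.52 beside -0.24 for all genes, and the 16 endothelial markers were higher by 1.04 on average. In N1het_TercG2 against N1WT_TercG2, 4 of the 9 were higher and 5 lower, with a median of -0.06 beside 0.06 for all genes. By at least 2-fold, 2 were higher and 0 lower in that comparison, beside 12.5% and 10.8%. Hmox1 is also abundant in macrophages.

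Selp was compared with other contents of Weibel-Palade bodies and with platelets, its 2 known stores. Vwf, von Willebrand factor of both, stood at 23.7 and 24.2 FPKM in N1WT_TercWT and N1WT_TercG2 and at 5.17 and 6.21 FPKM in N1het_TercWT and N1het_TercG2. Selp did not share that division, at 11.9 and 27.3 FPKM against 12.3 and 8.72 FPKM. Edn1, endothelin, another Weibel-Palade cargo, stood at 5.39, 6.35, 7.87 and 27.8 FPKM in the order N1WT_TercWT, N1het_TercWT, N1WT_TercG2, N1het_TercG2. Cd63, a membrane protein of these and other granules, stood at 157, 193, 269 and 294 FPKM. Angpt2 stood at 5.84, 4.13, 5.84 and 5.97 FPKM and Plat at 69.5, 64.9, 77.3 and 81.2 FPKM. The list held 12 genes of these bodies and of regulated secretion. In N1WT_TercG2 against N1WT_TercWT 0 were at least 2-fold higher and 1 lower, beside 8.9% and 20.9% of all genes. In N1het_TercG2 against N1WT_TercG2 1 was higher and 1 lower by that measure, beside 12.5% and 10.8%.

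Platelet markers were far higher in both N1WT groups. The summed FPKM of 14 markers was 3451 in N1WT_TercWT, 133 in N1het_TercWT, 2243 in N1WT_TercG2 and 429 in N1het_TercG2, and Gp9, a subunit of the platelet von Willebrand factor receptor, stood at 531, 2.21, 346 and 20.8 FPKM. With long telomeres Selp was at 12.3 FPKM in the valves where all 14 markers were at least 2-fold lower, against 11.9 FPKM where they were high. Of all genes, 7.53% were at least 2-fold lower in that comparison. With short telomeres Selp was lower in the group where all 14 markers were again at least 2-fold lower, beside 10.8% of all genes. The part of platelets in that difference was not tested.

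The summed neutrophil markers were highest where Selp was, and the summed macrophage markers where the other 4 members were. The summed FPKM of 12 neutrophil markers was 16.5 in N1WT_TercWT, 46.4 in N1het_TercWT, 1804 in N1WT_TercG2 and 177 in N1het_TercG2. S100a8, a calprotectin subunit, was at 892 FPKM in N1WT_TercG2. In N1het_TercG2 against N1WT_TercG2, 9 of the 12 were at least 2-fold lower, beside 10.8% of all genes. Selp was also at least 2-fold lower there, while the other 4 members were higher. Ly6g went the other way, at 2.69 FPKM in N1WT_TercG2 and 3.61 FPKM in N1het_TercG2. In N1WT_TercWT the markers Ngp, Ly6g, Elane and Camp were listed at 0, in N1het_TercWT Elane was, and in N1het_TercG2 Elane and Mpo were.

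The 12 macrophage and monocyte markers summed to 1107, 1612, 1461 and 2918 FPKM in N1WT_TercWT, N1het_TercWT, N1WT_TercG2 and N1het_TercG2. Their sum was highest where Vcam1, Sele, Icam1 and Icam2 were highest, and none was listed at 0. C1qa stood at 62.3, 70.7, 33 and 145 FPKM and Cd14 at 22, 48.8, 61.2 and 121.8 FPKM. Of the 2918 FPKM in N1het_TercG2, Lyz2 alone gave 1839. Other markers of the list went another way. Csf1r stood at 47.8, 44.9, 46.3 and 41.6 FPKM, lowest in N1het_TercG2. Mertk was highest in N1WT_TercG2, at 19.5 FPKM, and Fcgr1 in N1het_TercWT, at 9.29 FPKM. In N1het_TercG2 against N1WT_TercG2, 7 of the 12 were at least 2-fold higher and 0 lower, beside 12.5% and 10.8% of all genes, with a median of 1.08 beside 0.06. The part of neutrophils and macrophages in the levels of the adhesion molecules was not tested.

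Markers of smooth muscle and interstitial cells, which can make Vcam1, did not have its pattern. The 9 smooth muscle markers summed to 1279, 283, 634 and 503 FPKM in N1WT_TercWT, N1het_TercWT, N1WT_TercG2 and N1het_TercG2, with Myh11, their myosin heavy chain, at 83.6, 4.55, 24.1 and 14 FPKM. The 11 interstitial cell and fibroblast markers summed to 5853, 5212, 8134 and 6052 FPKM. Dcn alone gave 2692, 2255, 4698 and 3188 FPKM of these sums, highest in N1WT_TercG2 as the sums were. In N1WT_TercG2 against N1WT_TercWT, 7 of the 11 were lower, with a median of -0.18 beside -0.23 for all genes. Their mean log2(FPKM + 1) was highest in N1WT_TercWT, at 7.78, and lowest in N1het_TercG2, at 7.42. The 7 B cell markers, which summed to 12.6 to 26.5 FPKM, were low throughout. Heart muscle markers (8 genes) summed to 3314, 4348, 3751 and 5802 FPKM and red cell markers (7 genes) to 17024, 7453, 28567 and 15769 FPKM. The sum of heart muscle markers was thus also highest in N1het_TercG2. All 8 were higher there than in N1WT_TercG2, 2 of them at least 2-fold, beside 12.5% of all genes. Vcam1 and Sele were likewise at least 2-fold higher in that comparison. The part of heart muscle in the levels of the members was not tested.

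**Figure D4:**
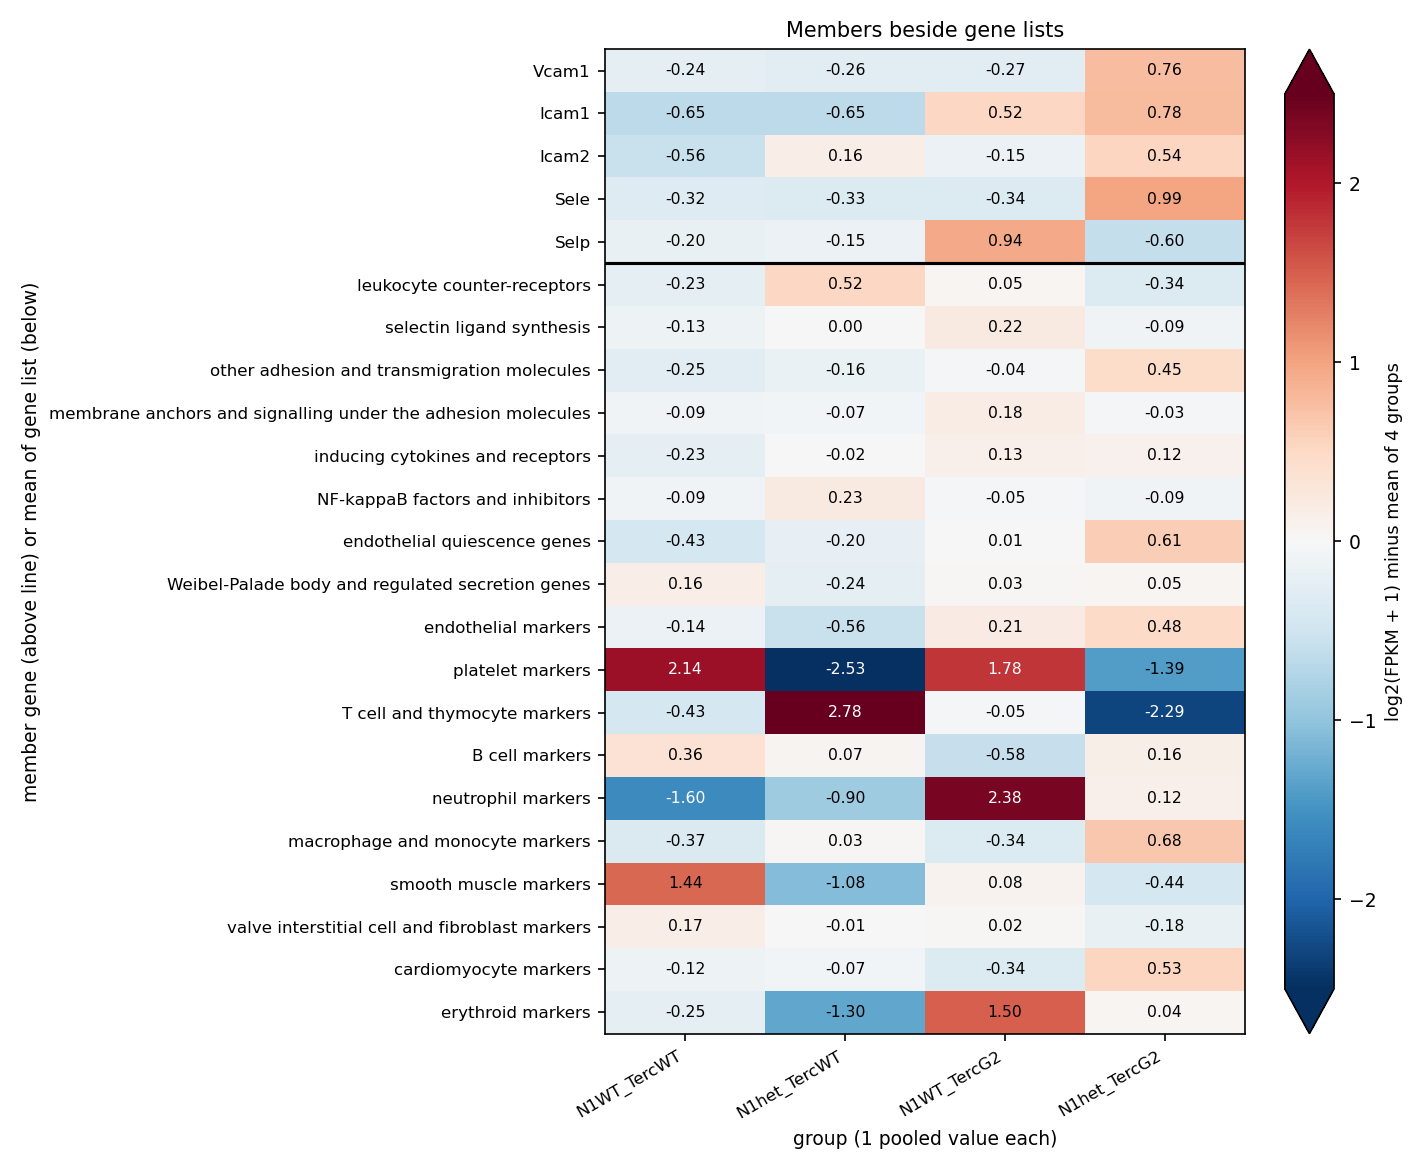
log2(FPKM + 1) minus its mean over the 4 groups (colour scale and printed numbers) for the 5 adhesion molecules (rows above the line) and for the mean of each gene list (rows below), by group (columns); each cell rests on 1 pooled value per gene. N1het_TercG2 is above the mean for Vcam1 (0.76), Icam1 (0.78), Icam2 (0.54) and Sele (0.99). It is also above it for endothelial markers (0.48), quiescence genes (0.61), macrophage markers (0.68) and cardiomyocyte markers (0.53). Selp is above its mean in N1WT_TercG2 (0.94), as are platelet (1.78), neutrophil (2.38) and erythroid markers (1.5). Platelet markers are higher still in N1WT_TercWT (2.14), where Selp is below its mean (-0.20).

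The genes most like each member in pattern were found by the root mean square difference of log2(FPKM + 1) over the 4 groups, each gene centred on its own mean, among 8911 named genes with a mean of at least 5 FPKM. For Vcam1 they were Samd9l (0.03), Uap1 (0.05) and Crybg3 (0.05), with Samd9l, an interferon-inducible gene, at 14, 13.9, 14 and 28.1 FPKM. For Sele they were Tmem180 (0.03), Ankrd23 (0.04), a gene of muscle, and Aoah (0.07). For Icam1 they were Ldb2 (0.06), Nlrp3 (0.07), the inflammasome sensor, and B4galt4 (0.10).

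Nlrp3 stood at 2.79 and 2.86 FPKM with long and 7.86 and 10.5 FPKM with short telomeres. For Icam2 the nearest genes were Atp6v1c1 (0.03), Chmp5 (0.04) and Myom2 (0.04), another muscle gene. For Selp they were Syk (0.02), a tyrosine kinase of blood cells, Map3k2 (0.04) and Ap4m1 (0.07), with Syk at 4.51, 4.72, 11.3 and 3.11 FPKM. Within 0.1 of a member lay 38 genes for Icam2, 21 for Vcam1, 7 each for Sele and Selp and 3 for Icam1. Over 4 values many genes can be alike, and muscle genes were among the nearest of endothelial ones.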

How the data were processed

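RNA of aortic valve leaflets, treated with collagenase for 20 minutes at 37 °C, was converted to cDNA, primed by random hexamers and poly-T, and amplified linearly, per the labels' protocols. Per the submitters' processing notes, the tools were FastQC, TopHat, SAMtools and Picard and the build was mm9, with no version or role of each. Per the file headers, the authors deposited pooled FPKM in 4 columns, 1 for each group, and 5 columns of 0 or 1 that are read as their calls. How FPKM and calls were made is not given in the sources used here. Columns 8 and 9 share a header; column 8 was assigned to the long-telomere Notch1 comparison, the pair of groups that alone differed at least 4-fold in every gene it marks.

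Differences are of log2(FPKM + 1), and at least 2-fold means at least 1 on that scale, which understates low genes. The planned limma test needed values per library and was not run. No lane or date was given, so no batch was examined. The members, the 18 gene lists (with the members, 207 of 220 entries were in the table) and the comparisons were chosen with earlier results of these data known. Genes named are the members, up to 4 genes per list with the widest range among those reaching 5 FPKM, of which a part is named, the 3 nearest in pattern, and others chosen after their values were seen. The code was tested on simulated data. Sequences are RefSeq's. Values were computed in Python 3.11.15 with pandas 2.3.3 and numpy 2.4.6 and drawn with matplotlib 3.10.9.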

Additional observations from a re-analysis of the deposited data

How the results depend on the processing

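The 30 differences and 5 departures from additivity of the members were recomputed under 5 alternatives. None of the 35 values moved by more than 1.5-fold with a pseudocount of 0.1 FPKM, median scaling, rescaling without mitochondrial genes, or a minimum mean of 5 FPKM. Sign changes numbered 0, 6, 1 and 0 under these, all in values whose size as deposited was at most 0.31. The minimum mean only drops other genes, so it could not move a member or turn its sign. Median scaling takes off the median of all genes, which was -0.34 in the comparison where its size was largest. That is less than 1.5-fold, so median scaling could turn a sign but not move a value past that limit. The endothelial reference moved 20 values by more than 1.5-fold and turned the sign of 7. Of those 7, 1 was past 2-fold as deposited: Vcam1 between short and long telomeres in heterozygous valves went from 1.02 to -0.019.

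Counts of members at least 2-fold higher changed in these cases. Median scaling left 1, not 2, for heterozygous against wild type with short telomeres and gave 4, not 3, for both changes against neither, as did a pseudocount of 0.1. Rescaling without mitochondrial genes left 1, not 2, for short telomeres alone against Notch1 loss alone, and 2, not 3, for short against long telomeres in heterozygous valves. With the endothelial reference the counts were 1, not 0, for heterozygous against wild type with long telomeres and 1, not 2, with short. They were 0 for short against long telomeres in either genotype, for both changes against neither, for short telomeres alone against Notch1 loss alone, and for departures. Counts at least 2-fold lower went from 0 to 1 for short against long telomeres in heterozygous valves, for both changes against neither and for short telomeres alone against Notch1 loss alone. The share of all genes past 2-fold in 1 direction was 4.71% to 22.9% as deposited, 7.82% to 35.1% with a pseudocount of 0.1, 7.8% to 17.5% with median scaling and 0.758% to 68% with the endothelial reference.

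No paired analysis was possible because the table holds 1 pooled value per group. For the same reason leaving out replicates and a filter per library were not run. Depth is unknown.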

Other observations

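Among 10025 genes with a mean of at least 5 FPKM, 249 (2.48%) had values within 0.15 of each other on the log2(FPKM + 1) scale in N1WT_TercWT, N1het_TercWT and N1WT_TercG2. Of these, 8 (0.0798% of the 10025) were higher in N1het_TercG2 than in each of the other 3 groups by at least 0.95. They were Vcam1, Sele, Samd9l, Uap1, Ankrd23, Tmem180, Cd55 and Spp1. Cd55, a membrane inhibitor of complement that leukocytes and endothelium carry, stood at 20.5, 22.6, 20.3 and 51 FPKM in N1WT_TercWT, N1het_TercWT, N1WT_TercG2 and N1het_TercG2. Both limits were set after the values of Vcam1 and Sele were seen, so that these 2 meet them by choice.

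By limits set in the same way, 83 genes (0.828%) were at least 1 higher in both TercG2 groups than in both TercWT groups, the pattern of Icam1. The pattern of Selp, at least 1 higher in N1WT_TercG2 than in each other group, was met by 291 genes (2.9%). That of Icam2, at least 0.5 higher in heterozygous than in wild type valves in both telomere settings, was met by 761 genes (7.59%).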
